A study of Mus musculus with 6 samples.

Results

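The genes described here encode lysine methyltransferases and demethylases of histones, together with relatives that carry the same protein folds. They were chosen by symbol, as every row of the deposited table whose name begins with Kmt, Kdm or Setd followed by a number or, for Setd, b, or is Ezh1 or Ezh2. Kdm5c, Kdm5d and Kdm6a, which lie on the sex chromosomes, were left out. This gave 36 of the 24537 transcripts in the table, and 35 of them reached 1 TPM (a level per transcript length and per library) in at least 3 libraries. The set was proposed with the difference between the genotypes in these same libraries already known. All values of that difference are therefore given as a description, with no test.

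The libraries come from regulatory T cells (Tregs) of the mouse colon, 3 labelled REV-ERB KO (KO 1, 2 and 3) and 3 labelled REV-ERB WT (WT 1, 2 and 3). Both groups had colitis induced with TNBS, a hapten given first on the skin (150 µl at 1%) and 7 days later into the rectum (100 µl at 2.5%). Which REV-ERB gene was deleted, in which cells, by which allele, the age and strain of the mice, and how the cells were sorted are not stated in the labels. Nr1d1, which encodes REV-ERBα, was measured at 169, 154 and 141 TPM in KO-labelled libraries and at 66.3, 104 and 88.2 TPM in WT-labelled libraries. The transcript was thus higher where the label says knockout, and since the deleted exons are not given its level checks nothing. Every direction below follows the labels. Of 9 listed Treg and T cell markers, all were detected, with Foxp3 at a lower level in KO-labelled libraries, at a summed 4443 to 5014 TPM in KO-labelled libraries and 5747 to 6314 TPM in WT-labelled libraries. Reads recovered from the table numbered 12641850 to 15890630 per KO-labelled library and 9794480 to 12122575 per WT-labelled library.

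Histone lysine methylation marks the state of a gene. Methylation of H3K4 accompanies active promoters and enhancers, that of H3K36 lies over transcribed gene bodies, and that of H3K27, H3K9 and H4K20 accompanies silent or compacted chromatin. Writers add methyl groups, most of them through a SET domain, and erasers remove them through a JmjC domain or, in the KDM1 proteins, an amine oxidase domain. In Tregs, EZH2 is known as a keeper of cell identity after activation, and the REV-ERB proteins are repressors that recruit a histone deacetylase complex to DNA. In bulk RNA, fewer cells of a type and less RNA per cell cannot be told apart.

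The transcripts of these enzymes lay mostly lower in KO-labelled libraries. Of the 35 tested genes, 32 had a difference below 0 and 3 a difference above 0, with a median of -0.23 on the log2(TPM + 1) scale. Among all 13211 tested genes, 50.5% had a difference below 0 and the median was -0.0028. All 17 listed epithelial markers were above 0, and with their mean level as a covariate the median of the 35 genes was -0.04 with 20 below 0. In 11 of the 35 genes every KO-labelled library lay below every WT-labelled library, and in 0 every one lay above. The same held below for 10.4% and above for 10.6% of all tested genes. Summed over the 36 genes, the level was 1235, 1210.4 and 1367 TPM in the KO-labelled libraries 1, 2 and 3, against 1393, 1551 and 1534 TPM in the WT-labelled libraries 1, 2 and 3. The sums did not overlap, though the gap between KO 3 and WT 1 was narrow. The median level of the 35 genes did overlap, at 34.6 TPM in KO 3 and 32.9 TPM in WT 1. Of the 21 tested Kmt, Setd and Ezh genes 19 were below 0 with a median of -0.26, and of the 14 tested Kdm genes 13 were, with a median of -0.17. The limma test over all genes called 0 genes lower (0% of those tested) and 0 higher (0%) at an adjusted p of 0.05. At an unadjusted p under 0.05 it held 1038 genes lower (7.86%) and 1030 higher (7.8%). The limma voom fit on recovered reads also called 0, with 2180 genes at an unadjusted p under 0.05, and without WT 1 the limma test called 14 genes, 12 of them lower.

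Writers of H3K4 methylation had the lowest median of the groups by mark that hold more than 1 gene. KMT2A and KMT2B methylate promoters, KMT2C and KMT2D mainly enhancers, and SETD1A and SETD1B carry most trimethylation at promoters. All 6 genes had a difference below 0, from -0.71 to -0.24 with a median of -0.46. Of the 6, 4 did not overlap between the groups. Of all tested genes, 50.5% had a difference below 0, and 10.4% had every KO-labelled library below every WT-labelled library. In the longest of 10 length bins of tested genes, which begins at 5769 bases, these shares were 65.6% and 18.02%. All 6 H3K4 writers fall in that bin. The H3K4 writers were also the longest group, with a median length of 12620 bases. With the length trend removed the median of the H3K4 writers was -0.25, no longer the lowest, as the 3 H3K9 writers had -0.26. That -0.26 counts Setdb2 (-0.26) and its overlapping readthrough transcript (-0.27), which are not independent, beside Setdb1 (-0.18). With the epithelial covariate the median of the H3K4 writers was -0.20. Setd1b (NM_001040398, mm10 chromosome 5, 123142193 to 123168630, plus strand) was measured at 17.0, 17.97 and 19.9 TPM in KO-labelled libraries and 25.9, 31.6 and 34.7 TPM in WT-labelled libraries. Its mean in KO-labelled libraries was 59.5% of that in WT-labelled libraries, a difference of -0.71 (SE 0.145). The 2 groups stood well apart, with the highest KO-labelled library below the lowest WT-labelled library.

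Kmt2a (NM_001081049, chromosome 9, 44803355 to 44881274, minus strand), the mouse MLL1 gene, stood at 40.8, 38.3 and 48.3 TPM in KO-labelled libraries and 53.5, 69.6 and 61.5 TPM in WT-labelled libraries (-0.52, SE 0.137). Kmt2b (NM_001290573, chromosome 7, 30568855 to 30588726, minus strand) stood at 25.6, 28.2 and 38.2 TPM in KO-labelled libraries and 42.4, 43.1 and 45.4 TPM in WT-labelled libraries (-0.51, SE 0.156). Neither gene overlapped between the groups, and in both KO 3 was the nearest to WT-labelled libraries. For Kmt2c (NM_001081383, chromosome 5, 25271794 to 25498783, minus strand) KO-labelled libraries held 25.9, 24.6 and 24.9 TPM and WT-labelled libraries 27.4, 34.9 and 35.0 TPM (-0.35, SE 0.131). Its separation rested on a narrow gap to WT 1. Kmt2d (NM_001033276, chromosome 15, 98831669 to 98871205, minus strand) had 31.7, 35.99 and 44.0 TPM in KO-labelled libraries and 40.6, 50.5 and 57.2 TPM in WT-labelled libraries (-0.40, SE 0.168). Setd1a (NM_178029, chromosome 7, 127777389 to 127800119, plus strand) had 26.7, 28.4 and 35.0 TPM in KO-labelled libraries and 32.9, 37.5 and 35.7 TPM in WT-labelled libraries (-0.24, SE 0.134). Both overlapped between the groups, because KO 3 lay above WT 1.

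**Figure D1:**
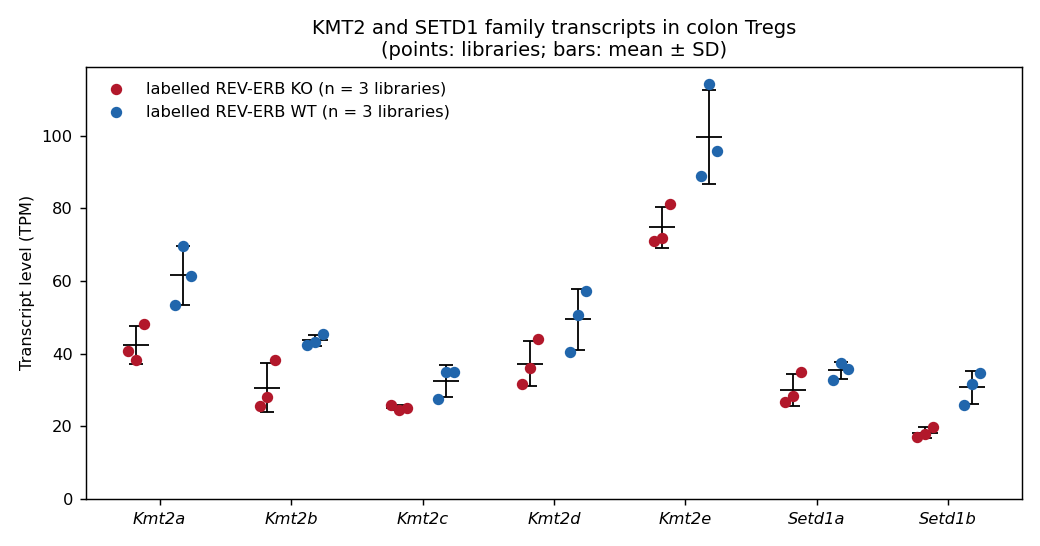
Transcript level in TPM (vertical axis, from 0) of the 6 H3K4 writers and Kmt2e, with KO-labelled libraries in red on the left of each pair and WT-labelled libraries in blue on the right; bars give the mean ± SD of n = 3 libraries. Setd1b, at 17.0 to 19.9 TPM in KO-labelled libraries and 25.9 to 34.7 TPM in WT-labelled libraries, shows the lowest ratio.

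The promoter of Kmt2a is shown because this gene had the lowest value among the H3K4 writers for which a promoter was given. The 250 bases before its start lie at chr9:44881290-44881539 on the minus strand (RefSeq, GRCm38.p6), and capitals mark the 29 CG dinucleotides.
Kmt2a: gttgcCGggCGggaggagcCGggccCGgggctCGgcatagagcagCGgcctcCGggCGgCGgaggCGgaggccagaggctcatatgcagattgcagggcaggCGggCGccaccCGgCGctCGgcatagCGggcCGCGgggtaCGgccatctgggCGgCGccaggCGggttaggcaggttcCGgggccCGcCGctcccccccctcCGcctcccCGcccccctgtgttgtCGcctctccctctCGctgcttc
Such CG-rich starts were common in the set. Promoters were given for 27 of the 36 genes, and the median count of CG in the 250 bases before the start (the richest start of each gene) was 23, against 17 over 9889 tested genes and 6 over all 27025 genes with a promoter. Kdm2a, Kdm3b, Kdm4b, Kdm5a, Kdm6b, Kmt2b, Kmt2e, Setd1b and Setdb2-phf11c had no entry.

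Kmt2e (NM_026984, chromosome 5, 23434429 to 23504229, plus strand) encodes MLL5, a relative of these writers that reads H3K4 methylation but is thought to have little enzyme activity of its own. It stood at 71.1, 71.9 and 81.1 TPM in KO-labelled libraries and 89.0, 114 and 95.7 TPM in WT-labelled libraries (-0.40, SE 0.121), with no overlap. Its row overlaps Srpk2 on the opposite strand, and the labels do not say whether strand was used in counting. Setd7, whose enzyme monomethylates H3K4 and other proteins, averaged 20.03 ± 0.58 TPM in KO-labelled libraries and 24.998 ± 3.61 TPM in WT-labelled libraries (SD, n = 3 each; -0.30, SE 0.138). Setd3, a methyltransferase of actin, averaged 65.3 ± 1.98 TPM in KO-labelled libraries and 71.45 ± 3.92 TPM in WT-labelled libraries (-0.13, SE 0.093). Both were without overlap between the groups, though the gap of Setd3 was small. Setd5, a SET protein whose activity is disputed, overlapped at -0.19 (SE 0.137).

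Erasers of H3K4 methylation differed less. KDM1A (LSD1) and KDM1B remove mono- and dimethylation, and KDM5A and KDM5B remove trimethylation. All 4 genes had a difference below 0 and all 4 overlapped between the groups. Kdm5b was the lowest at -0.32 (SE 0.158), with 16.5 ± 1.62 TPM in KO-labelled libraries and 20.9 ± 3.42 TPM in WT-labelled libraries. Kdm5a (-0.14), Kdm1a (-0.11) and Kdm1b (-0.06) were close to level. Kdm1b (NM_172262, chromosome 13, 47043499 to 47085279, plus strand) lay at 9.72, 11.0 and 10.9 TPM in KO-labelled libraries and 10.4, 11.0 and 11.5 TPM in WT-labelled libraries. Dek, a far more abundant transcript (up to 163 TPM), overlaps Kdm1b on the opposite strand, and Ccdc77 overlaps Kdm5a in the same way.

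Of the genes of H3K27 methylation, Ezh1, Ezh2 and Kdm6b overlapped between the groups. Kdm7a, described below with the H3K9 genes, did not. Ezh1 lay near the median of the 35 genes (-0.23), Ezh2 varied within a group and Kdm6b was near level. EZH1 and EZH2 are the alternative catalytic subunits of Polycomb repressive complex 2, and KDM6B (JMJD3) removes the mark. Ezh2 (NM_001146689, chromosome 6, 47530274 to 47595030, minus strand) had 35.9, 34.2 and 60.9 TPM in KO-labelled libraries and 44.2, 44.8 and 54.3 TPM in WT-labelled libraries. The KO-labelled libraries thus held both its lowest values and its highest, and the difference of -0.17 was smaller than its SE of 0.219. Ezh1 (NM_007970, chromosome 11, 101191115 to 101226463, minus strand) had 31.6, 28.5 and 31.5 TPM in KO-labelled libraries and 30.8, 40.1 and 36.1 TPM in WT-labelled libraries (-0.21, SE 0.129). Kdm6b (NM_001017426, chromosome 11, 69398518 to 69413675, minus strand), the most abundant of the 36 transcripts, had 180.1, 161 and 146 TPM in KO-labelled libraries and 173, 169 and 161 TPM in WT-labelled libraries. Its groups overlapped fully, at a difference of -0.05 (SE 0.104).

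Among the H3K9 genes the JmjC eraser Kdm7a (NM_001033430, chromosome 6, 39136620 to 39206773, minus strand) was the lowest. KDM7A demethylates H3K9 and H3K27. It stood at 39.1, 36.4 and 29.0 TPM in KO-labelled libraries and 40.5, 55.4 and 54.8 TPM in WT-labelled libraries (-0.51, SE 0.166), and here KO 3 was the lowest of the 6. Its groups did not overlap, though the gap between KO 1 and WT 1 was narrow. A rare transcript, 4930599N23Rik, overlaps Kdm7a on the opposite strand, as 5031434O11Rik does Setd7. The KDM3 enzymes remove mono- and dimethylation and the KDM4 enzymes trimethylation of H3K9. Kdm3a averaged 50.3 ± 3.57 TPM in KO-labelled libraries and 58.1 ± 1.39 TPM in WT-labelled libraries (-0.21, SE 0.099), without overlap. Kdm3b (-0.28), Kdm4a (-0.20), Kdm4b (-0.09) and Kdm4c (-0.33) overlapped between the groups. The H3K9 writers Setdb1 (-0.23) and Setdb2 (-0.28) overlapped as well, as did the readthrough transcript Setdb2-phf11c (-0.31). The rows of Setdb2 and its readthrough overlap on the same strand, so the authors' counting could assign the same reads to both and they are not independent. Without the readthrough the median of the remaining 34 genes was -0.23, with 31 below 0. Setdb1 overlaps Cers2 on the opposite strand.

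Kdm4d, an eraser of H3K9 methylation best known from the testis, was the gene that did not pass the filter on low values. It was listed at 1.69, 1.22 and 0.927 TPM (38, 30 and 26 reads) in KO-labelled libraries and 0.575, 0.292 and 0.201 TPM (10, 6 and 4 reads) in WT-labelled libraries. Every KO-labelled library lay above every WT-labelled library, the reverse of the other genes that separated, and the means differed 3.59-fold. With no filter its difference was 0.74 (SE 0.186).

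The H3K36 and H4K20 genes differed less uniformly. SETD2, the enzyme of H3K36 trimethylation, had a transcript at 36.3 ± 2.40 TPM in KO-labelled libraries and 43.0 ± 6.57 TPM in WT-labelled libraries (-0.23, SE 0.137). Kdm2b, an H3K36 eraser that also brings Polycomb complex 1 to CG-rich DNA, stood at 104, 99.8 and 95.6 TPM in KO-labelled libraries and 122, 119 and 117 TPM in WT-labelled libraries (-0.26, SE 0.087). It was without overlap and had the smallest SE of the 35 genes, while its relative Kdm2a was close to level (-0.11, SE 0.134). Kmt5b and Kmt5c, which write the di- and trimethylation of H4K20, had -0.26 (SE 0.125), without overlap, and -0.30 (SE 0.225). Kmt5c spread from 17.7 to 34.6 TPM among KO-labelled libraries alone, and from 28.1 to 31.5 TPM among WT-labelled libraries.

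The 3 genes above 0 all overlapped between the groups. Kmt5a (NM_001310725, chromosome 5, 124439930 to 124462311, plus strand), whose enzyme monomethylates H4K20 in the cell cycle, had 55.1, 61.2 and 60.4 TPM in KO-labelled libraries and 56.4, 54.7 and 51.7 TPM in WT-labelled libraries (0.12, SE 0.098). Kdm8, whose enzyme was first described as an H3K36 eraser (NM_029842, chromosome 7, 125444620 to 125462268, plus strand), had 2.72, 3.98 and 4.44 TPM in KO-labelled libraries and 2.58, 3.08 and 3.40 TPM in WT-labelled libraries (0.22, SE 0.232). Setd4 (NM_145482, chromosome 16, 93583461 to 93603815, minus strand) had 5.35, 4.64 and 4.66 TPM in KO-labelled libraries and 5.995, 4.997 and 3.39 TPM in WT-labelled libraries (0.05, SE 0.228). Setd6 (NM_001035123, chromosome 8, 95715913 to 95719004, plus strand), which methylates the NF-κB subunit RELA, stood on the other side of 0 (-0.05, SE 0.203), at 14.6, 13.0 and 19.9 TPM in KO-labelled libraries and 13.2, 19.0 and 17.0 TPM in WT-labelled libraries. In 9 of the 35 genes, Setd4 and Setd6 among them, the difference was smaller than its SE.

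In level, the 36 genes spanned from 0.817 TPM (Kdm4d) to 165 TPM (Kdm6b) as the mean of the 6 libraries. Kdm2b at 109.6 TPM and Kmt2e at 87.2 TPM followed Kdm6b, and 31 of the 36 genes lay between 10 and 100 TPM. The median of the 35 tested genes was 33.1 TPM, against 16.4 TPM over all tested genes. Kdm8 (3.37 TPM) and Setd4 (4.84 TPM) were the least abundant of those tested.

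The 6 libraries did not contribute alike. KO 1 was the lowest of all 6 for 13 genes and KO 2 for 15, while KO 3 was the lowest for 4. WT 3 was the highest for 15 genes and WT 2 for 10, and WT 1 for 3. The median deviation of the 35 genes from their own mean over the 6 libraries was -0.17, -0.19 and 0.05 on the log2 scale in the KO-labelled libraries 1, 2 and 3. In the WT-labelled libraries 1, 2 and 3 the same median was -0.02, 0.20 and 0.15, so KO 3 lay above WT 1. Over all tested genes the same medians ran from -0.03 to 0.05. Without KO 3 the number of genes with every KO-labelled library below every WT-labelled library was 26, against 23.5% of all tested genes. Without WT 1 it was 23, against 22.1% of all tested genes. The median difference was -0.31 without KO 3, -0.29 without WT 1 and -0.17 without KO 2.

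**Figure D2:**
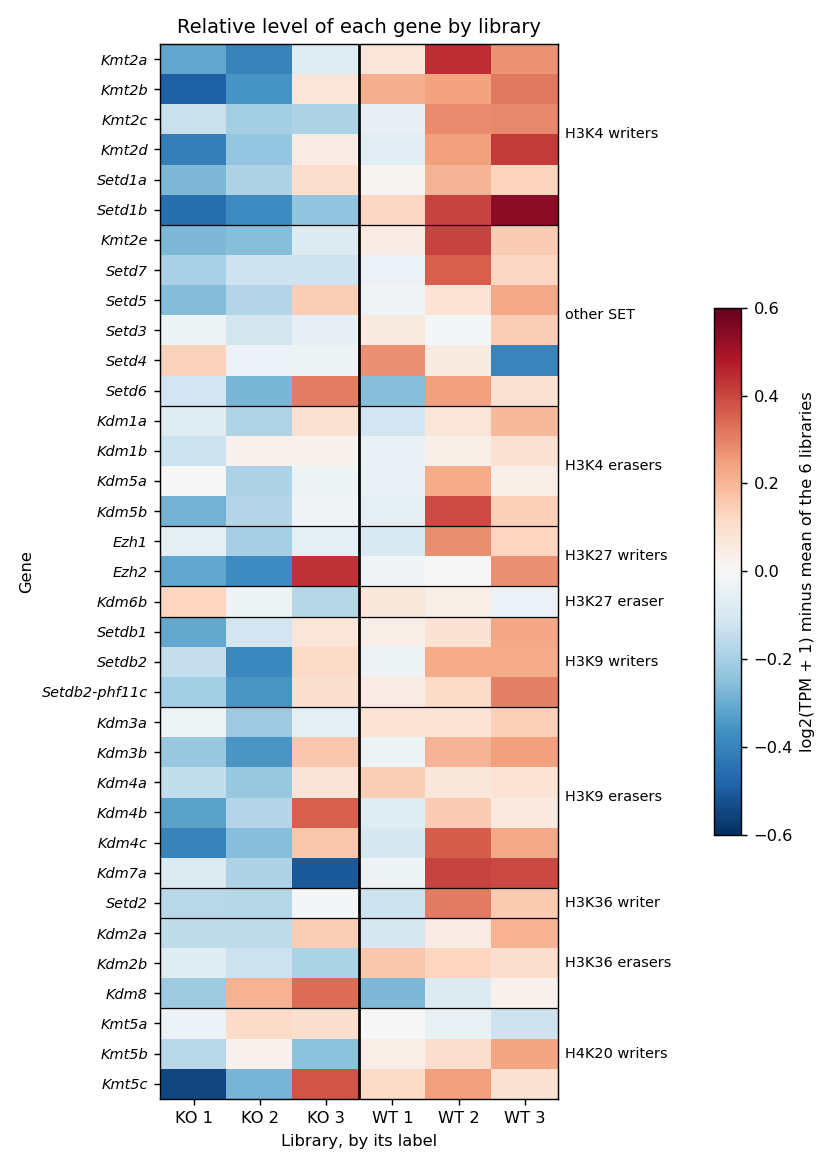
Level of the 35 tested genes (rows, grouped by the mark they act on) in each library (columns, KO-labelled on the left and WT-labelled on the right of the line), as log2(TPM + 1) minus the mean of the 6 libraries. KO 1 and KO 2 are mostly blue (median -0.17 and -0.19), WT 2 and WT 3 mostly red (0.20 and 0.15), and KO 3 and WT 1 lie between.

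The differences also ordered with transcript length. The 35 transcripts had a median length of 4964 bases against 2627 bases over all tested genes, and ran from 1660 bases (Setd6) to 19770 bases (Kmt2d). Across the 35 genes the difference was lower at greater log10 of length (Pearson r = -0.61, Spearman rho = -0.57), as a description over genes that share the same 6 libraries. Over all 13211 tested genes the same values were -0.07 and -0.16. In 10 bins of all tested genes by length, the median difference was 0.06 in the shortest bin and -0.12 in the longest, which begins at 5769 bases and holds 16 of the 35 genes. Those 16 genes had a median of -0.31, and all 16 were below 0, against 65.6% of the 1321 genes in that bin. Of the 16, 7 did not overlap between the groups, against 18.02% of the bin.

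Shorter transcripts of the set lay closer to 0, in length classes that were chosen after the values were seen. The 9 genes under 3000 bases had a median of -0.11 with 6 below 0, against a median of 0.04 and 44.7% below 0 among the 7686 other genes of that class. From 3000 to 6000 bases, all 11 genes were below 0 at a median of -0.23, against -0.04 and 56.2% among 4306 others. Taking the median of its own length bin from each gene left a median of -0.17 and 29 of 35 genes below 0. After the trend of each library on length was removed before the fit, the median was -0.16 and 28 of 35 were below 0. Setd1b then stood at -0.58, Kmt2a at -0.32 and Kmt2b at -0.39, while Kmt2c (-0.14) and Kmt2d (-0.17), the longest beside Kmt2a, moved the most toward 0 with it. Kdm1b, Kdm2a, Kdm5a and Kdm6b changed sign there, and each of these values was within 0.05 of 0.

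**Figure D3:**
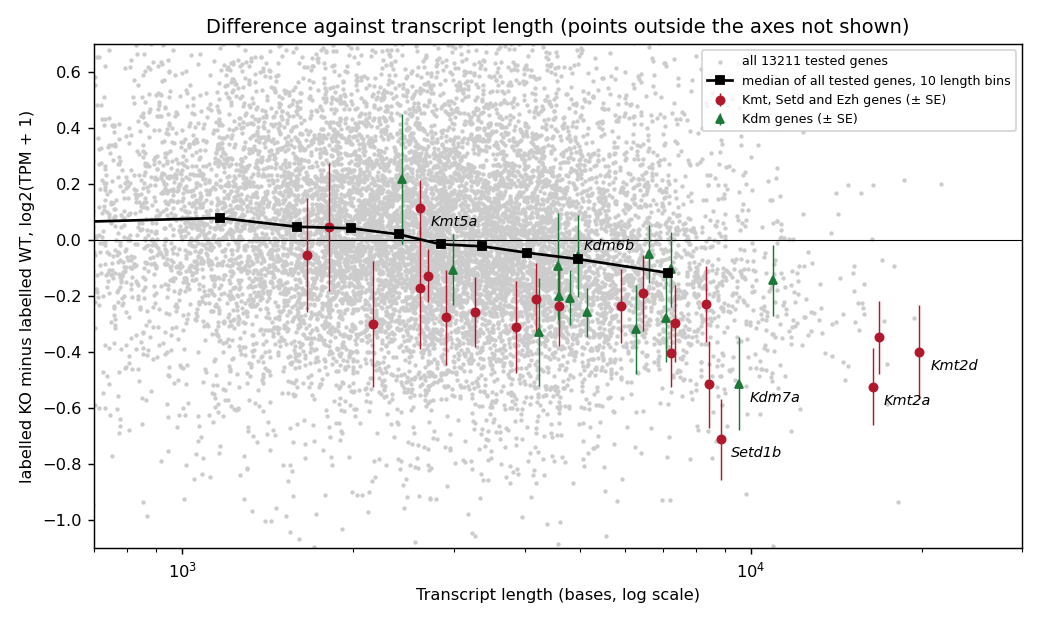
Difference between KO-labelled and WT-labelled libraries on the log2(TPM + 1) scale (vertical axis) against transcript length in bases (log axis); grey points are all 13211 tested genes, black squares the medians of 10 length bins, red circles the Kmt, Setd and Ezh genes and green triangles the Kdm genes, with SE. Points beyond the axes are not drawn, among them the square of the shortest bin. The median of all tested genes is 0.06 in that bin and -0.12 in the longest. The 8 Kmt, Setd, Ezh and Kdm genes over 8000 bases lie between -0.71 and -0.14.

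Other transcripts differed with the labels as well. All 17 listed epithelial markers had a difference above 0 (median 0.83), and 11 of the 17 did not overlap. Their summed level was 3362 to 6623 TPM in KO-labelled libraries and 2332 to 3310 TPM in WT-labelled libraries. The mean log2 level of these markers was highest in KO 2 (7.80), where the methylation genes were lowest, and lowest in WT 2 (6.23), where they were highest. With that mean as a covariate the median of the 35 genes was -0.04, and 20 of 35 were below 0, against 47.8% of all tested genes. Setd1b (-0.56, SE 0.230), Kdm7a (-0.51, SE 0.282), Kmt5b (-0.42, SE 0.190) and Kmt2b (-0.30, SE 0.242) were then the lowest, Kmt5b having stood at -0.26 without the covariate. Kmt2a (-0.19), Kmt2d (-0.18), Kmt2e (-0.17) and Setd1a (-0.02) lay much nearer to 0 than without it, and 12 genes changed sign, among them Ezh2 (0.26) and Kdm4c (0.05). Every KO-labelled library had a higher epithelial mean (6.93 to 7.80) than every WT-labelled library (6.23 to 6.78), so the covariate and the genotype cannot be told apart fully.

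The nuclear-retained transcripts Malat1 and Neat1 summed to 442 to 490 TPM in KO-labelled libraries and 786 to 1006 TPM in WT-labelled libraries. Treg and T cell markers had a median of -0.27, with 8 of 9 below 0. Foxp3, the transcription factor gene that defines Tregs, had 195, 171 and 235 TPM in KO-labelled libraries and 451, 664 and 590.3 TPM in WT-labelled libraries (-1.49, SE 0.172, limma adjusted p = 0.068), with no overlap. Myeloid markers had a median of 0.31 with 8 of 8 above 0, at a summed 457 to 823 TPM in KO-labelled libraries and 418 to 666 TPM in WT-labelled libraries. Fibroblast and smooth muscle markers had a median of 0.25 (7 of 7 above 0), at 252 to 492 TPM in KO-labelled libraries and 195 to 463 TPM in WT-labelled libraries. B cell markers (27.5 to 52.4 TPM in KO-labelled libraries and 26.4 to 48.1 TPM in WT-labelled libraries) and CD8 T and NK cell markers (7.60 to 11.6 TPM in KO-labelled libraries and 8.44 to 15.7 TPM in WT-labelled libraries) were low in both groups, and no defining marker was at 0 in all libraries. Beyond the epithelial covariate, the part of other cells, of the lower Foxp3 level, of nuclear RNA and of the greater depth of KO-labelled libraries in the differences was not tested.

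**Figure D4:**
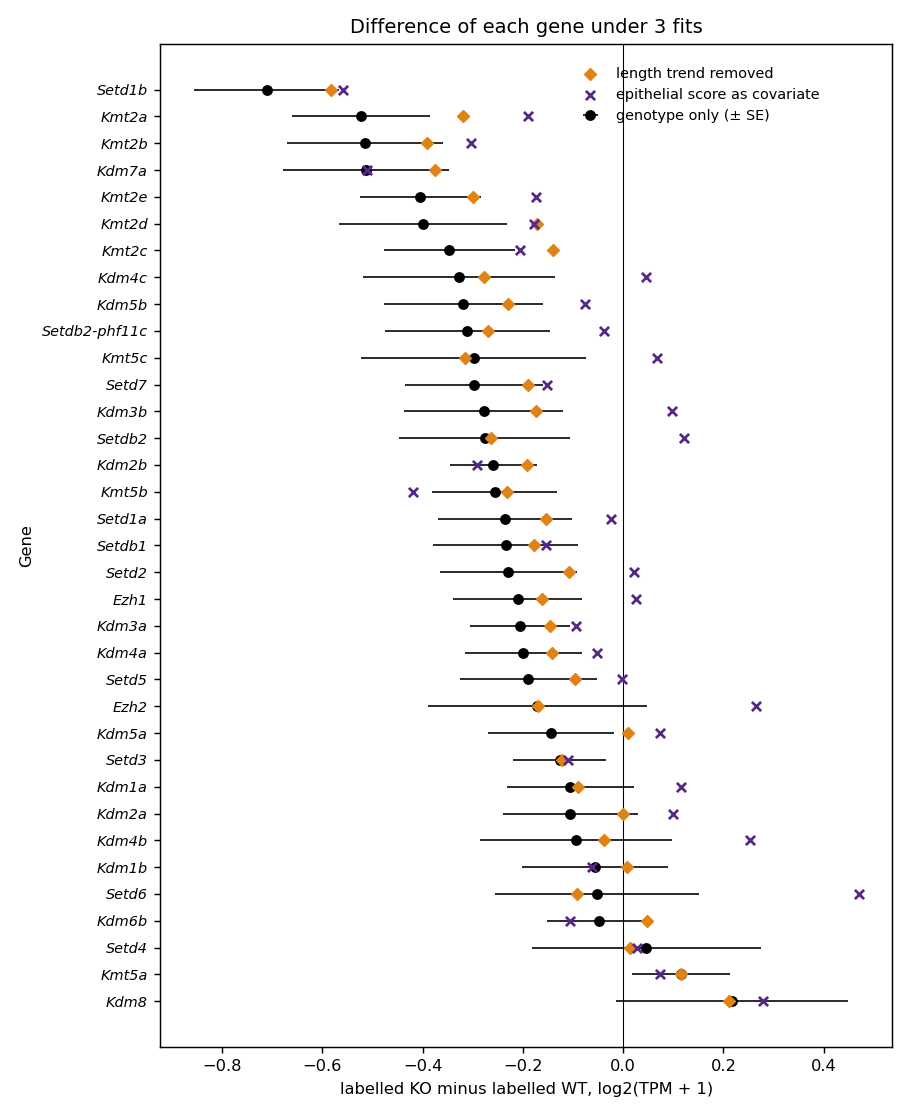
Difference of each of the 35 genes (rows) between KO-labelled and WT-labelled libraries on the log2(TPM + 1) scale (horizontal axis) with genotype as the only term (black, ± SE), with the length trend removed (orange diamonds) and with the epithelial mean as a covariate (purple crosses). The median is -0.23, -0.16 and -0.04 in turn.

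Partners of these enzymes and other chromatin modifiers were examined as 8 lists of 115 symbols. Of these, 105 were tested in the same limma fit, and 0 passed an adjusted p of 0.05 in either direction. At an unadjusted p under 0.05, 18 were lower and 1 was higher in KO-labelled libraries, where 7.86% and 7.8% of all tested genes were. The limma voom fit on recovered reads called 0 as well, with 17 lower and 3 higher at an unadjusted p under 0.05. Across the 105 genes, 72 were below 0 and 33 above, with a median of -0.15. List medians ran from -0.22 to 0.05 with genotype as the only term. With the epithelial covariate they ran from -0.07 (enzymes of DNA methylation) to 0.21 (arginine methyltransferases), so the lower level of the partners was not kept there. With genotype as the only term, all 21 partners of 6000 bases or more were below 0 (median -0.31), while 21 of the 43 under 3000 bases were (median 0.00). Among tested genes outside the methylation set, 66.0% of those of 6000 bases or more were below 0 (median -0.12). Under 3000 bases 44.7% were (median 0.04). These length classes were chosen after the values were seen.

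WDR5, ASH2L, RBBP5 and DPY30 form the core that every KMT2 and SETD1 enzyme needs. Wdr5 (0.07), Ash2l (0.11) and Dpy30 (0.05), named after their values were seen, were slightly above 0. Rbbp5, the other core subunit, had 30.2 TPM in KO-labelled libraries and 38.4 TPM in WT-labelled libraries as means (-0.33, SE 0.113, limma adjusted p = 0.24). Bod1l, a large partner of SETD1A, stood at -0.43 (SE 0.140, limma adjusted p = 0.23), and both were lower in every KO-labelled library. The 16 genes of this list had a median of -0.14, with 11 below 0. Eed (-0.17) and Suz12 (0.04), the obligate partners of EZH1 and EZH2, also named after their values were seen, stood within 0.2 of 0. In the list of 12 partners of Polycomb complex 2 (median 0.02, 5 below 0) the accessory factor Phf1 (-0.48, SE 0.109, limma adjusted p = 0.15) and Epop (0.62, SE 0.195, limma adjusted p = 0.22) had the smallest p. Polycomb complex 1, which ubiquitinates histone H2A, had 15 of 19 subunits below 0 (median -0.17). Pcgf1, a subunit of one form of this complex, stood at -0.57 (SE 0.189, limma adjusted p = 0.23) and was lower in every KO-labelled library.

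Of 17 further lysine methyltransferases 12 were below 0 (median -0.22). Those of smallest p were the H3K79 writer Dot1l, at 76.9 TPM in KO-labelled libraries and 97.3 TPM in WT-labelled libraries (-0.33, SE 0.11, limma adjusted p = 0.23), and Ash1l, an H3K36 writer (-0.45, SE 0.161, limma adjusted p = 0.26). Of 12 further demethylases and partners 9 were below 0 (median -0.18), led by Jmjd1c, a relative of the KDM3 enzymes, at 39.8 TPM in KO-labelled libraries and 56.8 TPM in WT-labelled libraries (-0.50, SE 0.11, limma adjusted p = 0.14), and Phf2 (-0.39). Acetyltransferases had a median of -0.17 (11 of 13 below 0), with Ncoa3 (-0.49) and Kat2b (-0.49) of smallest p. Enzymes of DNA methylation had a median of -0.15 (7 of 8 below 0), with Tet2, which oxidises methylated cytosine (-0.47), and the DNA methyltransferase Dnmt3b (-0.64) of smallest p. The arginine methyltransferases, short transcripts with a median length of 2475 bases, had a median of 0.05 with 2 of 8 below 0, Prmt9 (-0.38) and Prmt3 (-0.32).

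**Figure D5:**
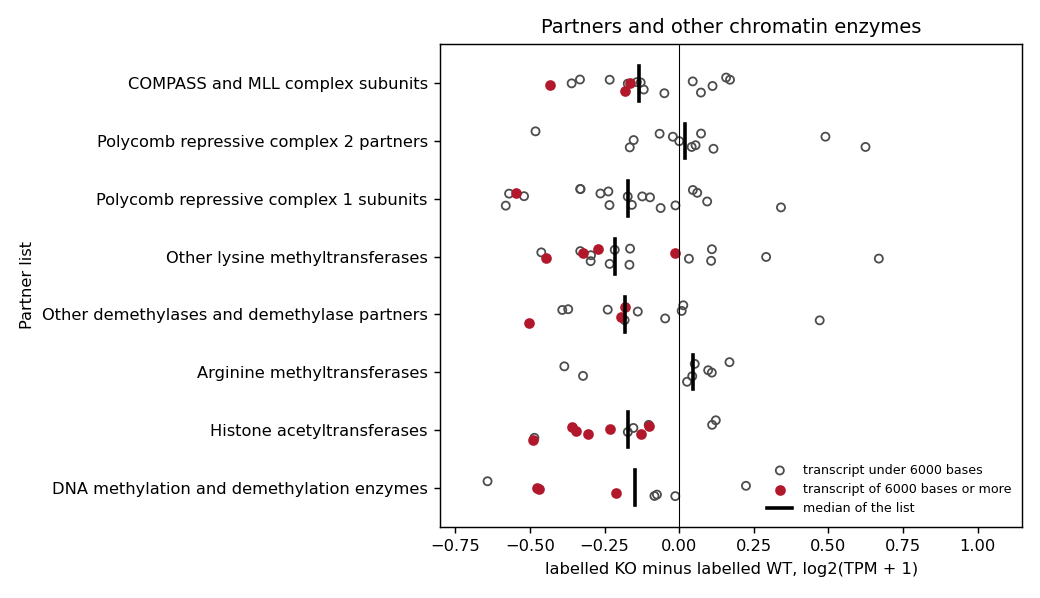
Difference between KO-labelled and WT-labelled libraries on the log2(TPM + 1) scale (horizontal axis) for the 105 tested partner genes in 8 lists (rows); filled points are transcripts of 6000 bases or more, open points shorter ones, and bars the median of each list. All 21 filled points lie below 0, against 66.0% of tested genes of that length outside the methylation set. The list medians run from -0.22 to 0.05, with genotype as the only term.

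The REV-ERB proteins bind the half-site AGGTCA, or its variant GGGTCA, behind an A- and T-rich stretch. The letters TAGGTCA and TGGGTCA were searched on both strands of the 250 bases before each start, with no A- and T-rich stretch required. Of 37 promoters of the set, 2 held TAGGTCA (5.41%, Kdm1a and Kdm4c) and 2 held TGGGTCA (5.41%, Kdm2b and Kdm4c). The shares were 2.23% and 3.24% of all 32851 promoters, and 1.80% and 2.73% of the 12582 promoters of tested genes. The E-box CACGTG, which clock activators bind, was found in 1 of the 37 (2.70%, Kdm4c). Among all promoters 6.02% held the E-box, and 8.19% of those of tested genes did. The 2 windows with TAGGTCA are shown, with those letters in capitals, at chr4:74242247-74242496 (plus strand) for Kdm4c and chr4:136602724-136602973 (minus strand) for Kdm1a, both RefSeq, GRCm38.p6.
Kdm4c: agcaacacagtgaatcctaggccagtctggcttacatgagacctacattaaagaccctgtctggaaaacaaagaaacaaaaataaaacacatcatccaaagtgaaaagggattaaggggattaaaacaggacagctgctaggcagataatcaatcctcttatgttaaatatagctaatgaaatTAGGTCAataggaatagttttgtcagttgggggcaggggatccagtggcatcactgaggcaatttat
Kdm1a: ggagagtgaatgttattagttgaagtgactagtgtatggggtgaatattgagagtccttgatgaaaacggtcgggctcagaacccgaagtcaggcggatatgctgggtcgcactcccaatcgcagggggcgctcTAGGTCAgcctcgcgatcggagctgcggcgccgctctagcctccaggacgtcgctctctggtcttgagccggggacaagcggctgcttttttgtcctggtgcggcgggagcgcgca
The Kdm4c window belongs to a start upstream of the deposited transcript, which begins at 74251879, and its match starts 67 bases before that upstream start. In Kdm1a the match starts 116 bases before the start. The letters just before the match are mostly A and T in Kdm4c and mostly C and G in Kdm1a. Kdm4c differed by -0.33 (SE 0.192) and Kdm1a by -0.11 (SE 0.127), and both overlapped between the groups. A match of letters is a description and says nothing of binding in these cells.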

How the data were processed

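Colon Treg libraries, 3 labelled REV-ERB KO and 3 labelled REV-ERB WT, were compared. Per the labels' protocols, a stranded mRNA kit was used on 1.3 µg of RNA. The authors deposited TPM values, 1 row per RefSeq transcript, with coordinates and length per the file headers. The submitters' processing notes name HOMER 4.9.1, STAR 2.5.3a, FastQC 0.11.8, Trim Galore 0.4.4 and the build mm10, without order or settings. TPM summed to 634200 to 644662 per library, below the 1000000 of a complete TPM column. TPM times length was a whole multiple of 1 step per library (99.99% of values up to 500 reads within 0.1 of a whole number), which gave the reads. These cover counting error only.

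Genes with at least 1 TPM in at least 3 libraries were fitted with limma 3.58.1 (R 4.3.3, two-sided, variance trend) on log2(TPM + 1), a scale that understates changes of low genes, with genotype as the only term and Benjamini-Hochberg adjustment over all genes at 0.05. Python 3.11.15 and matplotlib 3.10.9 served for summaries and plots. SDs are over n = 3 libraries per group. Each SE is the moderated SE of the limma fit, which pools both groups and draws the variance toward its trend over the fitted genes. The labels do not say that libraries came from separate animals, so the spread may be technical.

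The members and lists were chosen with earlier results of these data known. Every member is named. Values per library are given for the KMT2 and SETD1 genes, Ezh1, Ezh2, Kdm6b and the 6 lowest and 6 highest differences, and Kdm2b and Kdm4d were added after their values were seen. Of each partner list the 2 genes with the smallest p are named, except 1 that is not reported here.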

Additional observations from a re-analysis of the deposited data

How the results depend on the processing

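The median difference of the methyltransferase and demethylase genes was below 0 under all 15 other settings. The replicate number as a block gave -0.23, which in this balanced design could not differ from the main fit. A change of filter likewise left the difference of each remaining gene as it was. The median was -0.24 and -0.21 with a pseudocount of 0.1 and 5, -0.22 with median-of-ratios scaling and -0.20 with voom on recovered reads. It ran from -0.31 to -0.17 when each library was left out. The number of genes below 0 was 31 to 33 without each library. With the epithelial mean as a covariate the median was -0.038, 20 genes were below 0, and the median after length bins was -0.021; the cause was not tested. That length-adjusted median ran from -0.20 to -0.09 without each library. Genes with every KO-labelled library below every WT-labelled library numbered 11 to 26 without each library, where groups of 2 overlap less by construction. Over all tested genes the share was 12.4% to 23.5%. The reverse held for 2 genes of the set without KO 1 and for 1 without WT 1.

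Over all genes, calls at an adjusted p of 0.05 were 0 under every setting except without WT 1, where 14 were called (12 lower), so the range without each library was 0 to 14. Partner genes called were 0 throughout, also without each library (0 to 0). Libraries with the same replicate number did not deviate together (correlations of same-numbered deviations 0.0037, -0.22 and -0.04), and the block gave 0 calls and 1819 genes at an unadjusted p under 0.05, against 2068 without it. Overlap counts were not computed for the block and the covariate. Of the 35 genes, 12 changed sign with the covariate, 4 with the length trend removed and at most 2 without a library. The lone gene under the filter, Kdm4d, entered with no filter only. With 3 libraries per group, a gene without a call may still differ.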
